A study of Arabidopsis thaliana and Ginkgo biloba and Brassica rapa with 13 samples.

Results

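The mitochondrial large subunit rRNA (Mitochondrial-26S rRNA) was followed at 3 cytosines across 6 species, C1549, C1566 and C1586 in the numbering of the Arabidopsis sequence. The sites were taken as all entries for this rRNA of the table of rRNA methylation percentages, 3 of 16 listed sites, together with the mitochondrial large subunit sequence of each species. RNA bisulfite sequencing (RBS-seq) turns unmethylated cytosine into uracil, so a cytosine that is still read as cytosine is scored as 5-methylcytosine (m5C). All material was wild type and untreated. It comprised 10 day old Arabidopsis thaliana (At) seedlings grown on soil with 3 RBS-seq libraries, and Brassica rapa (Br), Triticum durum (Td) flag leaf, Caulerpa taxifolia (Ct) fronds, Nannochloropsis oculata (No) cells and Ginkgo biloba (Gb), each with 1 RBS-seq and 1 RNA-seq library. Br and Gb material was leaf by the sample labels and shoot apex by the methods of the study, and species and tissue could not be separated. The deposited value is the percentage of mapped cytosines among mapped cytosines and thymines, and for At it is the authors' mean, so no replicate error stands behind any value, and the read depth at each site is unknown.

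The large subunit rRNA holds the peptidyl transferase centre, and mitochondria and chloroplasts carry their own bacterial-type versions of it beside the nuclear-encoded cytosolic one. m5C in rRNA is placed by site-specific methyltransferases of the NSUN and Rsm or Rlm families, and in yeast and animals an NSUN5-type enzyme methylates a cytosine of the cytosolic large subunit. The 3 mitochondrial sites lay close together in a conserved part of the molecule. C1566 was 17 bases after C1549, and C1586 was 20 bases after C1566.

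In the TAIR10.1 assembly the At sites fell at mitochondrial coordinates 141730 (C1549), 141713 (C1566) and 141693 (C1586) on the minus strand. All lay in the exon of rrn26 (DA397_mgr01, MT:140797-143965), the mitochondrial 26S rRNA gene, and the 61 bases centred on each site occurred at 1 place in the assembly. The deposited At line of 2568 bases matched MT:140714-143279, with 4 gaps. It therefore lacks the 5′ part of this gene of 3169 bases and runs past its 3′ end. The site numbers count along the deposited line. The stretches from 10 bases before C1549 to 10 bases after C1586 are shown 5′ to 3′ because the comparison of species and of organelles turns on how alike they are. Capitals mark the 3 sites or the bases aligned with them, and in the nuclear sequence the methylated C2268.
At, Br and Gb mitochondrial 26S: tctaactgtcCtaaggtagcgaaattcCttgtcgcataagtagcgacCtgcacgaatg
Td mitochondrial 26S: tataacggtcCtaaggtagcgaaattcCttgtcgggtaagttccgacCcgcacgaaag
Ct mitochondrial 26S: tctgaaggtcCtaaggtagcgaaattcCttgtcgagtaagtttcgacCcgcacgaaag
At and Td chloroplast 23S: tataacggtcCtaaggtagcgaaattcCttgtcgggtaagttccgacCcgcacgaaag
Ct chloroplast 23S: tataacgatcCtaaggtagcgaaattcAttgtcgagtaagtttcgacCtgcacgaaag
At nuclear 25S: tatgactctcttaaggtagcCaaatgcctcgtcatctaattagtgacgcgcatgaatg

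The deposited mitochondrial references limit what each percentage can be assigned to. Those of Br, Td, Ct and Gb were consensus sequences that the authors derived from RNA-seq reads aligned to the At 26S rRNA. The Br line was identical to the Gb line over its 2519 bases, and 4 of the 11 rRNA lines that these species have in common were identical, the chloroplast 23S among them. The shared 26S line held 2385 determined bases, against listed lengths of 2531 for Br and 2384 for Gb. Per the study's methods reads were aligned to the reference of their own species, and whether the deposited Br line is the sequence used for Br could not be settled here. The shared line did not differ from At over the 133 bases of the exact run that holds all 3 sites. The Td mitochondrial line was identical to its own chloroplast 23S line over 178 bases around all 3 sites, so mitochondrial and chloroplast reads of Td cannot be told apart there.

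C1586 was called in every species, C1549 in 3 and C1566 in 1. For C1549 the text of the paper gives high methylation in more species than these 3. At the authors' threshold of 20%, 10 of the 18 combinations of site and species were called (55.6%), against 70.3% of all 74 percentages in the table (52 called). Without Td the count was 8, and without Br it was 9, each of 15. Each of the 16 listed sites had at least 1 species at or above that threshold, so a listed site with no call was not possible and the call of C1566 in No lies behind its listing. The percentages cover a bulk sample, so methylation of all molecules in some cells and of some molecules in all cells cannot be told apart.

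C1586 was the most evenly methylated of the 3 sites. Its methylation level was 93% in Ct, 92% in Br, 92% in Td, 83% in Gb, 74% in No and 72% in At. The median was 87.5% and the whole range was 21 points. No and At were 9 points or more below the other species. Neighbours in this order cannot be said to differ, because no spread between libraries was available for any species.

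C1549 varied most. Its methylation level was 89% in Td, 84% in Ct and 60% in No, and 13.8% in Br, 8% in At and 1.63% in Gb. The 3 species at or above 60% were thus separated from the 3 below 20% by more than 46 points, and the range over species was 87.4 points. The seed plants were split, since the wheat Td stood beside the algae while Br, At and Gb were low. Without Td, whose reference cannot be told from chloroplast sequence at this site, the highest values were those of the algae Ct and No.

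C1566 was methylated above the threshold in No alone. Its methylation level was 40% in No, against 1% in At, 0.126% in Td, 0.0683% in Ct and 0% in Br and Gb. The same RBS-seq library of Td that gave 89% at C1549 and 92% at C1586 therefore gave 0.126% at the cytosine between them. In Ct the values were 84% at C1549, 93% at C1586 and 0.0683% at C1566.

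**Figure D1:**
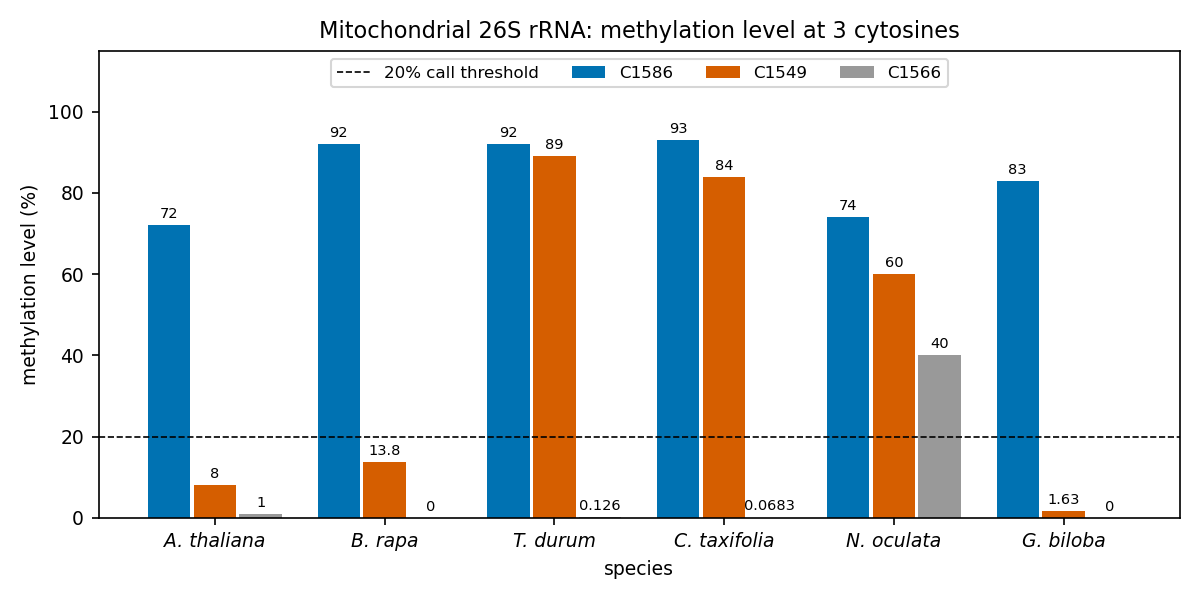
Methylation level (%) at C1586, C1549 and C1566 in each of the 6 species, 1 bar per deposited value, with the 20% call threshold as a dashed line and no error bars because no replicate values were used. C1586 is at 72% or more in every species, C1549 is high in Td, Ct and No only, and C1566 passes the threshold in No at 40%.

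The order of the 3 sites was the same in all 6 species, C1586 above C1549 above C1566. C1586 exceeded C1549 by 41.6 ± 36.7 points on average (SD over 6 species), with averages of 84.3% and 42.7%. The difference was 81.4 points in Gb, 78.2 points in Br and 64 points in At, and it was 14 points in No, 9 points in Ct and 3 points in Td. C1549 exceeded C1566 by 35.9 ± 39.7 points, from 1.63 points in Gb to 88.9 points in Td, with averages of 42.7% and 6.87%. C1586 exceeded C1566 by 77.5 ± 22.9 points, with a difference of 34 points in No and of 71 to 92.9 points in the other species. Each of these contrasts had p = 0.03125 in an exact two-sided sign-flip permutation test over the 6 species, which is the smallest p that 6 species allow. After Benjamini-Hochberg adjustment over the 5 contrasts made, the exact permutation tests gave 0.0521 for each, so none passed 0.05. Without Br and Td, whose references are in doubt, the differences were 42.1, 28.1 and 70.2 points in the same order over 4 species. The exact permutation test gave p = 0.125 for each, the smallest that 4 species allow. The species kept still included Gb, with the same deposited line as Br, and Ct, whose reference is also a consensus from aligned reads. Species are related to each other, and the At, Br and Gb references were identical around the sites, so they are not independent draws. C1566 is listed only through its call in No, and cytosines without a call in any species are not listed. The sites were thus chosen by these same percentages, and the contrasts with C1566 lend no support of their own to this order.

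Chloroplast 23S rRNA is the counterpart of mitochondrial 26S rRNA, and the alignment paired the sites exactly. C1549 aligned with chloroplast C1940 and C1586 with chloroplast C1977, which are listed m5C sites. C1566 aligned with chloroplast C1957, which is not listed for any species, and Ct carried C1957A there. The chloroplast pair was methylated in all 6 species, at 70 to 88% for C1940 and at 82 to 91% for C1977.

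At the first site the mitochondrial level was below the chloroplast level in 4 species and above it in Td and Ct. The mitochondrial and chloroplast levels were 1.63% and 85% in Gb, 13.8% and 83% in Br, 8% and 70% in At, and 60% and 81% in No. In Td they were 89% and 88%, and in Ct 84% and 73%. C1549 averaged 42.7% and C1940 80%, a difference of -37.3 ± 39.5 points (SD, n = 6 species), with exact permutation p = 0.125 and adjusted p = 0.156. Without Br and Td it was -38.8 points. The values of Td and Ct lie on the other side of zero from those of the other species, at 1 and 11 points.

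At the C1586 site the organelles were close. The mitochondrial and chloroplast levels were 93% and 90% in Ct, 92% and 90% in Br, 92% and 91% in Td, 83% and 90% in Gb, 74% and 88% in No, and 72% and 82% in At. C1586 averaged 84.3% and C1977 88.5%, a difference of -4.17 ± 7.14 points (SD, n = 6 species), with exact permutation p = 0.25 before and after adjustment. The differences ran from -14 points in No to 3 points in Ct, with 3 species on each side of zero, and the difference was -7 points without Br and Td.

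**Figure D2:**
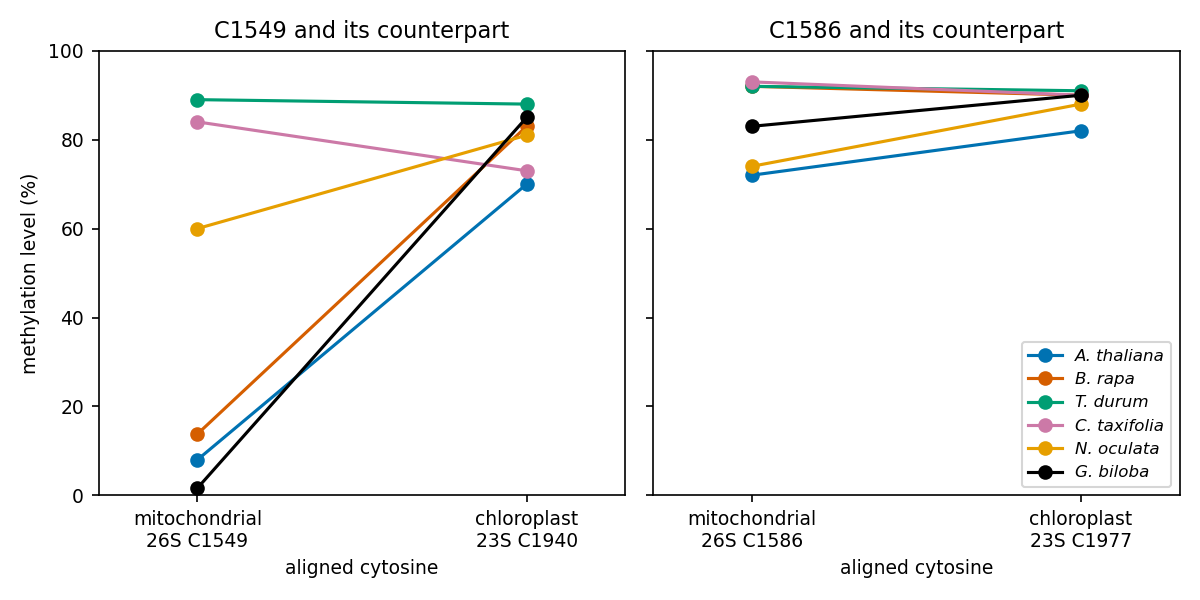
Methylation level (%) of the mitochondrial 26S cytosine (left of each panel) and of the chloroplast 23S cytosine aligned with it (right), with 1 line per species. For C1549 the mitochondrial points of Gb, At and Br are at 1.63%, 8% and 13.8%, far below their chloroplast points at 70 to 85%, while for C1586 all lines run within 14 points of level.

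The nuclear 25S rRNA carries its own m5C in the same stretch, but at another base. C2268, a listed m5C site, aligned 10 bases after C1549, and all 12 organelle references had C2268G. At C1549 and C1586 the At nuclear sequence carried C1549T and C1586G. C1566 aligned with a nuclear cytosine, C2275, which is not a listed m5C site. C2268 and the mitochondrial sites thus lay within the same conserved run but at bases that do not align. The other listed nuclear 25S site, C2860, lay outside this run, at 82 to 86% over the species. It aligned with a mitochondrial cytosine, C2112, 563 bases after C1549, which is not a listed m5C site.

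Among listed sites of other rRNAs, C1586 was closest in level to chloroplast C1977, with a mean absolute difference of 6.17 points over 6 species. Chloroplast C1940 at 7.33 points, nuclear 25S C2268 at 7.67 and nuclear 25S C2860 at 8.33 were nearly as close. The nearness is thus to sites that are high in every species and is not particular to C1977. For C1549 the nearest was nuclear 18S C1717, at 23.9 points over 5 species, and for C1566 it was the same C1717, at 18.6 points over 5 species. C1717 was at 52% in Td, while At, Br, No and Gb lay between 0.0517 and 0.300%. The nearness of C1566 to C1717 thus rests on values near 0 in At, Br and Gb, since C1566 was at 40% in No and 0.126% in Td. For the clustered 18S sites of Td, the paper proposes that incomplete bisulfite conversion in strong structure may be the source.

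The stretch that carries the sites was shared almost base for base between organelles. Of the 38 positions from C1549 to C1586, 33 had the same base in all 6 mitochondrial references and 32 had the same base in all 12 organelle references. The At stretch held 9 cytosines, of which 6 are not listed as methylated in any species, so the 3 listed sites are a selection of closely spaced cytosines. Over 30 bases on each side of C1549, identity to At was 100% in Br and Gb, 90% in Td, 88.3% in No and 86.7% in Ct. Around C1586 it was 100% in Br and Gb, 90% in No, 76.7% in Td and 70% in Ct. Over the whole length of the deposited 26S lines, identity to At was 89.0% for the line shared by Br and Gb, 85.0% in Td, 74.6% in Ct and 54.9% in No.

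At 4 of the 98 positions from 30 bases before C1549 to 30 bases after C1586, At, Br and Gb shared a base while Td, Ct and No shared another. These were T1545G, A1574G, A1580T and G1608T in At numbering, and all 6 chloroplast references had the base of Td, Ct and No. T1545G lies 4 bases before C1549 and is the only difference of this kind before that site. C1549 was at 89%, 84% and 60% in the species with the G and at 13.8%, 8% and 1.63% in those with the T. The positions were found after the percentages had been seen, the At, Br and Gb stretches are a single sequence, and whether any of these bases bears on methylation was not tested.

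**Figure D3:**
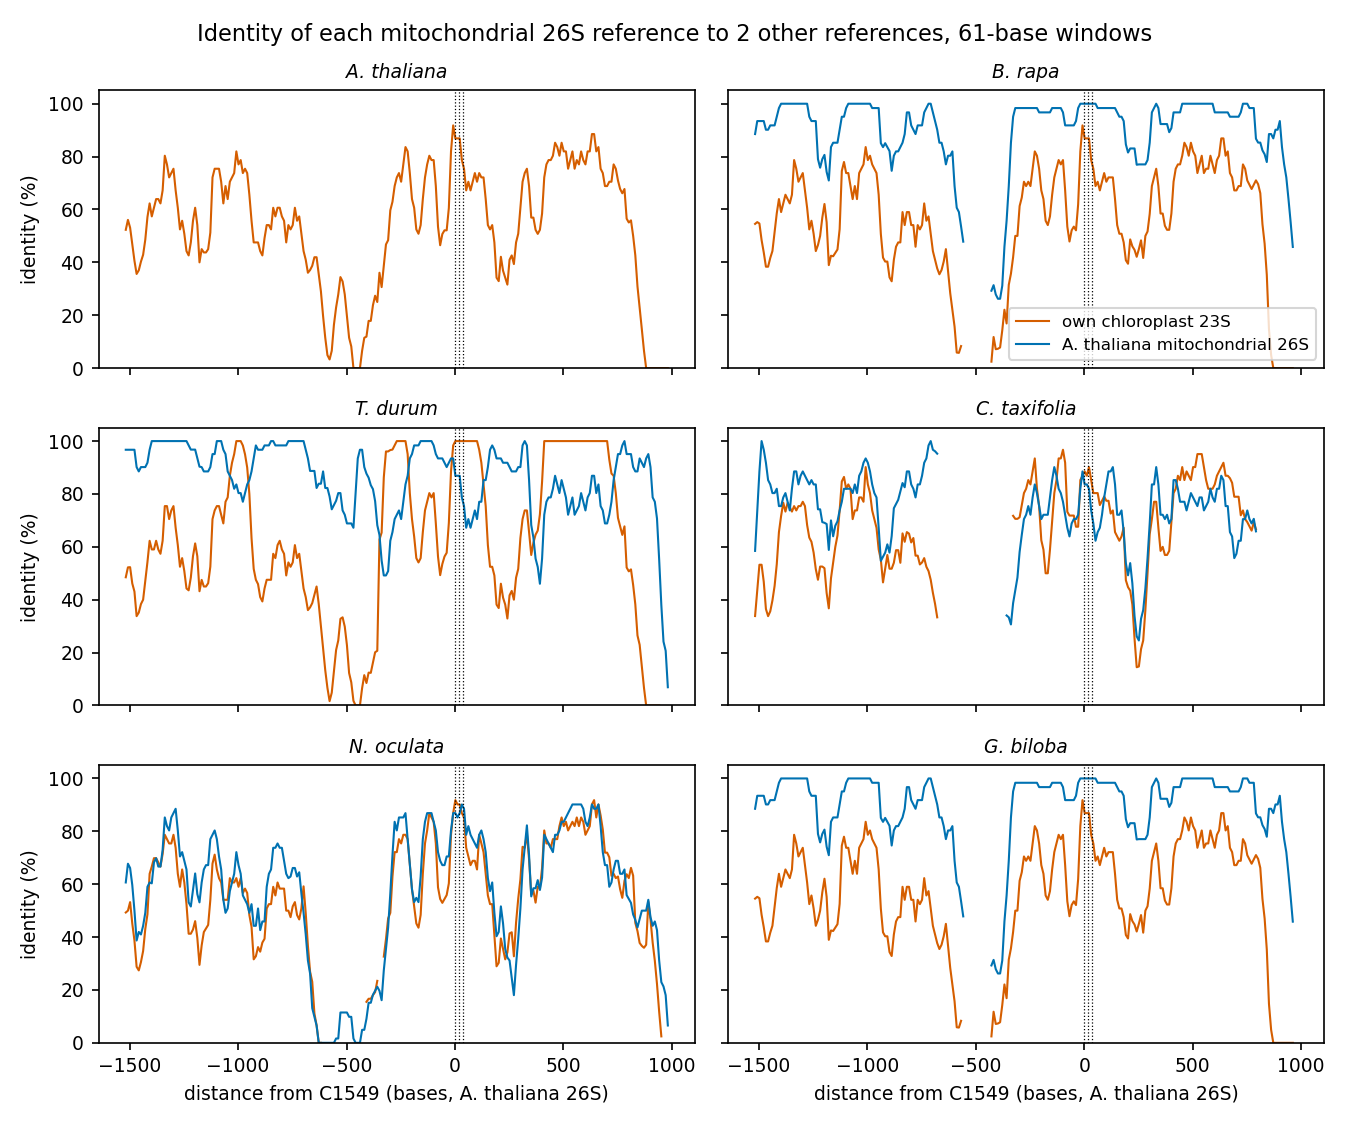
Identity (%) of each mitochondrial 26S reference to its own chloroplast 23S (orange) and to the At mitochondrial 26S (blue) along the molecule, in steps of 10 bases and windows spanning 61 At bases, by distance from C1549. Dotted lines mark the 3 sites, and lines break where fewer than 40 alignment columns could be compared because of undetermined bases or gaps in both sequences. In Td the orange line reaches 100% in several places, the sites included, where the blue line drops.

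The Td reference alternated between stretches like the At mitochondrial 26S and stretches identical to its own chloroplast 23S. Of its 31-base windows, 25.7% occurred exactly in the Td chloroplast 23S, against 1.50% in Ct, 0.272% in No and 0% in At, Br and Gb for their own chloroplast 23S. These windows formed 4 segments of 93, 151, 178 and 355 bases, together 777 of 2480 determined bases (31.3%). All 3 sites were in the segment of 178 bases, at positions 1497 to 1674 of the Td line. Td was 77.6% identical to the At mitochondrial 26S inside these segments and 93.4% identical outside them. At 89% and 92%, the Td values at C1549 and C1586 were 1 point above the values of the Td chloroplast counterparts.

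**Figure D4:**
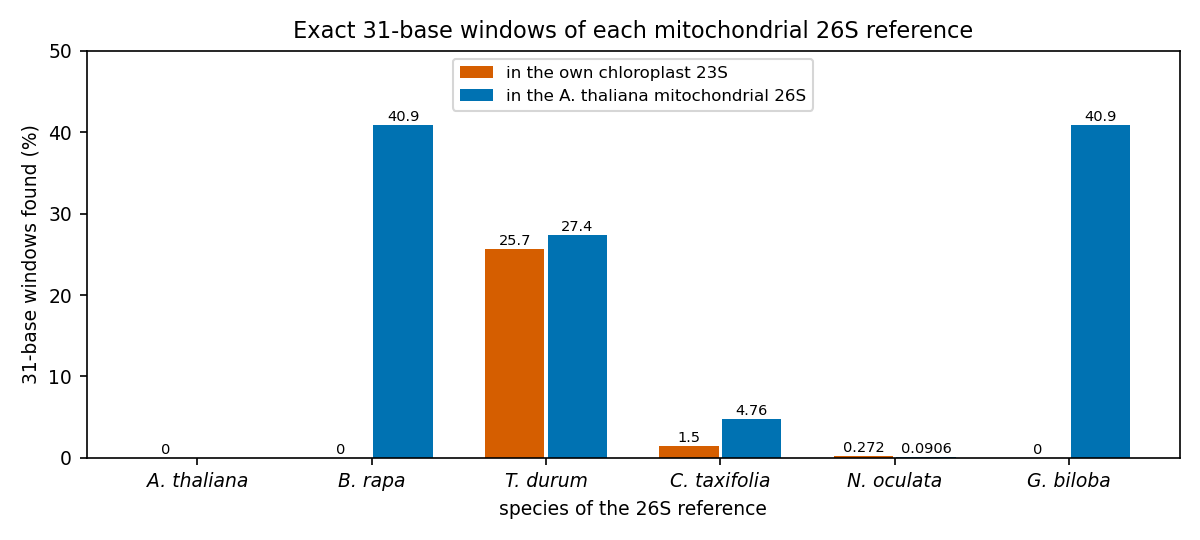
Share (%) of the 31-base windows of each mitochondrial 26S reference that occur exactly in the chloroplast 23S of the same species (orange) and in the At mitochondrial 26S (blue, not defined for At). Td stands apart with 25.7% in its own chloroplast 23S, close to its 27.4% in the At mitochondrial 26S.

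In the other species the deposited mitochondrial and chloroplast lines could be told apart around the first site. For Br both lines are identical to those of Gb, so its counts are not separate from those of Gb. Over the 61 bases centred on C1549, the mitochondrial and chloroplast lines of the same species differed at 7 positions in Ct and at 6 in At, Br, Gb and No. After every cytosine was turned into thymine, as in the alignment of bisulfite reads, 6 remained in At, Br, Gb and Ct and 5 in No. Around C1586 there were 14 differences in At, Br and Gb, 11 in Ct and 8 in No, of which 10, 7 and 4 remained after conversion. Over the 58 bases from 10 before C1549 to 10 after C1586, Ct was nearer to chloroplast than to At mitochondrial sequence. It differed from the At mitochondrial line at 9 positions, from the At chloroplast line at 5 and from its own chloroplast line at 6. For No these counts were 8, 6 and 6. Exact chloroplast segments made up 118 of 1960 determined bases (6.02%) in Ct, and none held a site. Whether chloroplast reads entered the Ct line or its levels was not tested. The At, Br and Gb lines each had an exact run of 27 bases in common with their own chloroplast 23S that held C1549 and C1566. No had an exact run of 36 bases in common with its own chloroplast 23S that ended in C1586 and held C1566, and 44 bases after conversion. The No level of 40% at C1566 had no listed chloroplast counterpart, and whether reads of both organelles entered it was not tested.

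Predicted base pairing of the sites is given beside the levels, and whether pairing bears on methylation was not tested. In windows of 50 bases on each side at 37 C, the pairing probability at C1566 was 0.904 in No, where the level was 40%, and 0.907 in Td, where it was 0.126%. It was 0.588 in Ct and 0.418 in At, Br and Gb. At C1586 it was 0.00605 in Br and 0.756 in Td, with a level of 92% in each. At C1549 it was 0.617 in No and between 0.232 and 0.402 in the other 5 species. A probability of 0.5 or more was reached in 5 of the 18 combinations. With 75 bases on each side the probability fell to 0.307 for Td at C1586 and to 0.423 for No at C1549. For No at C1586 it rose from 0.444 to 0.619, so the combinations that reached 0.5 depended on the window.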

How the data were processed

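Per the methods of the study, the authors trimmed and aligned reads with CLC Genomics Workbench (version not given in the sources used here) to rRNA sequences with cytosine turned into thymine. The deposited values are percent methylation, called by the authors at 5 or more reads and 20% or more, with an unmethylated spike-in RNA as conversion control. They were used as deposited, through the table of percentages and the table of reference sequences. The submitters' notes name TAIR10, and coordinates here are those of TAIR10.1. Members, lists and tests were chosen with earlier results of these data known. All 3 sites and their aligned chloroplast counterparts were named, and for each site the listed site of another rRNA with the smallest mean absolute difference over at least 5 species.

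Contrasts were paired by species and tested by exact sign-flip permutation (NumPy 2.4.6), which was tested on simulated data. References were aligned with MAFFT 7.526 (local pairs, 100 iterations) and placed with BLAST 2.17.0, and pairing was predicted with ViennaRNA 2.7.2. Undetermined bases were left out and a gap counted as a difference. Pairwise alignment used Biopython 1.88. Alternatives changed the species included, the scale, the statistic, the call threshold, the window and flank lengths, the aligner and the folding temperature.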

Additional observations from a re-analysis of the deposited data

Results flagged for a closer look

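Of 12 sets of values over species examined for an end value far from the rest, 4 had one. A rate by chance of about 1 of 20 sets cannot be set against this count. The sets share values, C1566 is listed through its No value, and the likeness of the Td reference to chloroplast sequence was known beforehand. The No level of 40% at C1566 stood apart from the other 5 species, which were at 1% or less. The No difference of 34 points between C1586 and C1566 stood below those of the other species, and it holds the same C1566 value. The At level of 82% at chloroplast C1977, which is the authors' mean of 3 libraries where the other species have 1, lay below the 88 to 91% of the other species. The share of 31-base windows found in the own chloroplast 23S was 25.7% for the Td mitochondrial reference and 1.50% or less for the others.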

How the results depend on the processing

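All contrasts kept their direction and stayed above an adjusted p of 0.05 when each species was left out in turn, without Br and Td together, on a log2 odds scale with 1 point added, and with the Wilcoxon signed-rank statistic. Leaving out 1 species moved C1586 minus C1549 between 33.6 and 49.3 points, C1549 minus C1566 between 25.3 and 42.7 points, C1586 minus C1566 between 74.4 and 86.2 points, C1549 minus C1940 between -46.9 and -28.0 points and C1586 minus C1977 between -5.6 and -2.2 points. With 5 species the smallest exact permutation p is 0.0625, so these tests could not have passed. The number of called combinations was 11 at a threshold of 10% and 9 at 50%. The share of Td windows found in its chloroplast 23S was 27.6% with windows of 21 bases and 22.3% with 51 bases, as longer windows are harder to match. Turning cytosine into thymine gave 25.9%. With 21 bases, 51 bases and converted letters the share was 3.89%, 0% and 2.89% in Ct, 1.49%, 0% and 1.31% in No, 0.628%, 0% and 0.827% in At, and 0.682%, 0% and 0.903% in Br and in Gb. At a folding temperature of 70 C, 1 combination reached a pairing probability of 0.5, against 5 at 37 C and 4 with 75 bases on each side. The median identity to At around the sites was 90% and between 88 and 90% under the alternatives. The files give no read depth per site, so values near 0% and differences of a few points have no error. Beyond the pairing by species, which the contrasts use, no pairing by replicate number was possible because the columns carry no replicate number and only At has more than 1 RBS-seq library.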

Other observations

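The Ct mitochondrial 26S reference had more exact 31-base windows in common with the chloroplast 23S line shared by Br and Gb (3.10%) than with its own chloroplast 23S (1.50%), and 4.76% were found in the At mitochondrial 26S. Of its 2493 bases, 533 were undetermined (21.4%), and none of these lay within 75 bases of a site.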
